A study of Rattus norvegicus with 2 samples.

Results

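Desmosomes are the rivet-like junctions that hold epidermal cells together. Desmosome genes were taken as a list of 10, and 6 of these had a named probe among the 15037 named genes of the arrays. The list was fixed by gene symbol with no filter on measured values, but it was chosen with earlier results of these data known. It held 5 desmosomal cadherin genes, of which 3 were measured (Dsg3, Dsc2 and Dsc3), and 4 genes for armadillo proteins, of which 3 were measured (Jup, Pkp2 and Pkp3). Dsg1, Dsc1, Pkp1 and the plakin gene Dsp had no named probe and were not analysed here. RNA levels were read from biotin-labelled cDNA on oligonucleotide arrays that cover whole transcripts, in cultured epidermal keratinocytes of newborn rats. In the siTet2/3 group the cells had been transfected with a pair of siRNAs against Tet2 and Tet3, at 1 µM each, and the control cells did not receive these siRNAs. Tet2 and Tet3 had no named probe, so the knockdown itself was not analysed here. The control array is titled NC+VC, and the labels call the controls non-treated. Whether they received another siRNA or the transfection reagent is not given there. For both groups the recorded timing is vitamin C for 12 h, added at 24 h after transfection, though a transfection of the control is not described. The medium held 10% serum and 0.4 µg/mL hydrocortisone. Each group had 1 array, so no difference has a replicate error, no test was possible, and the words "higher" and "lower" apply to this pair of arrays alone.

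In a desmosome, desmogleins (Dsg) and desmocollins (Dsc) of neighbouring cells bind each other in the space between the cells. Their tails bind plakoglobin (Jup) and the plakophilins (Pkp) under the membrane, and these recruit desmoplakin (Dsp), which anchors the keratin filaments. In epidermis Dsg3 and Dsc3 are known chiefly from the lower layers, and Dsg1, Dsc1 and Pkp1 from the upper ones. TET proteins, which vitamin C stimulates, start the removal of methyl groups from DNA by oxidising methylcytosine.

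The keratinocyte label was checked against marker genes. All 6 keratinocyte markers with a named probe, among them Krt14 and Tp63, lay above the background floor. The floor was 5.04 log2 units, the 95th percentile of chemoreceptor genes, which skin cells hardly use. All 6 fibroblast markers, the 4 measured melanocyte markers and the 3 measured Merkel or nerve markers lay below it on both arrays. Of the markers of other cell types, 1 of 5 endothelial markers (Tek), 1 of 5 measured immune markers (Cd68) and 2 of 4 simple epithelium markers (Krt7 and Krt19) lay above it, and Krt8 and Krt18 lay below it. A stricter floor of 8.31 log2 units, from negative-control probes, is named where it matters. A total of 8103 genes passed the lower floor, and their median difference, siTet2/3 minus control, was -0.05 log2 units.

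Of the 6 desmosome genes, 1 was at least 1.5-fold lower on the siTet2/3 array and 0 were at least 1.5-fold higher. The background share over the 8103 genes that passed the floor was 13.2% for lower and 8.63% for higher genes at the same limit. The lower gene was Pkp3. Dsc2 was lower and Pkp2 higher by less than that limit, and Dsg3, Dsc3 and Jup differed by less than 0.05 log2 units. All 6 genes passed the floor on both arrays. Their median difference was 0.01 log2 units and their mean difference -0.15, so these summaries differed in sign. Each gene had a single probe set, and levels were not compared between genes because probe sets differ in brightness. Arrays of whole cultures cannot tell fewer cells of a type from less RNA per cell.

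**Figure D1:**
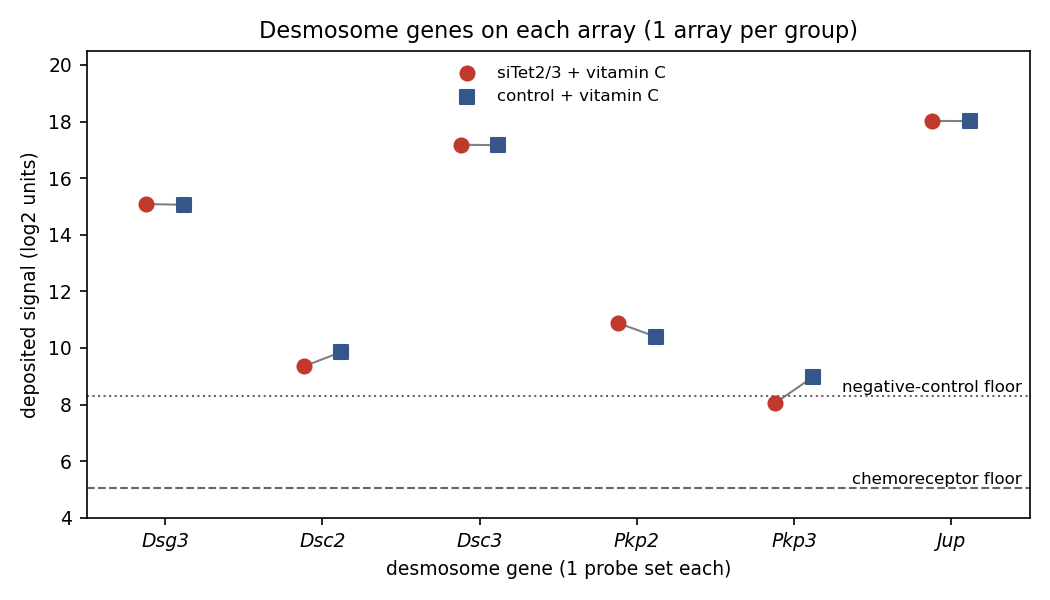
Deposited signal in log2 units (vertical axis) of the 6 measured desmosome genes (horizontal axis) on the siTet2/3 array (circles, left of each pair) and the control array (squares, right). Each point is 1 array and there are no error bars; the dashed and dotted lines mark floors of 5.04 and 8.31. Pkp3 is the gene whose siTet2/3 point lies below the upper line, while the points of Dsg3, Dsc3 and Jup are level.

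Among the cadherin genes, Dsg3, which encodes the desmoglein targeted by autoantibodies in pemphigus vulgaris, read 15.08 log2 units on the siTet2/3 array and 15.06 on the control array. Dsc3, the desmocollin gene of the lower epidermal layers, read 17.18 on the siTet2/3 array and 17.16 on the control array. These differences of 0.02 log2 units each were small even beside the genes nearest in signal, though at this bright end those genes spanned a wide range. Of the 500 genes nearest to Dsg3 in mean signal, which spanned 13.39 to 16.75 log2 units, 95.4% differed at least as much in either direction. The genes nearest to Dsc3 spanned 13.79 to 19.93, and the share was 92.0%. Dsc3 lay 2.75 log2 units below the highest deposited value, 19.93, and whether signals saturate near that value was not tested.

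Dsc2, a desmocollin gene expressed in many epithelia and in heart muscle, read 9.35 log2 units on the siTet2/3 array and 9.86 on the control array. The difference of -0.51 made it 1.42-fold lower on the siTet2/3 array, which did not reach 1.5-fold. Of the 500 genes nearest in signal, 16.8% had a lower difference, so a difference of this size was common at that signal. The robust SD of the differences among those genes was 0.41 log2 units.

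Dsc2 and Dsc3 are neighbours in the genome. In the RefSeq annotation of assembly GRCr8 the protein-coding genes of this stretch of chromosome 18 follow each other in the order Dsc3, Dsc2, Dsc1, Dsg1, Dsg4, Dsg3, Dsg2. The difference of Dsc3 (0.02) exceeded that of its neighbour Dsc2 (-0.51) by 0.53 log2 units, or 1.44-fold. As given above, a difference like that of Dsc2 was common among genes near it in signal. Dsg4, a desmoglein gene of hair and upper epidermis that was not among the 10, read 3.12 on the siTet2/3 array and 2.94 on the control array, below the floor on both.

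Among the armadillo protein genes, Jup, which encodes plakoglobin, the plaque protein shared by desmosomes and adherens junctions, read 18.02 log2 units on both arrays. Its difference was 0.00 log2 units at 1.91 below the highest deposited value. Of the 500 genes nearest in signal, which spanned 13.79 to 19.93 as for Dsc3, 94.8% differed at least as much. Pkp2, the plakophilin gene best known from heart muscle and also expressed in many epithelia, read 10.88 on the siTet2/3 array and 10.40 on the control array. It was 1.40-fold higher on the siTet2/3 array (difference 0.48), and 92.2% of the genes nearest in signal had a lower difference.

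Pkp3, which encodes a plakophilin found in desmosomes of nearly all epithelia, read 8.05 log2 units on the siTet2/3 array and 8.97 on the control array. The siTet2/3 signal was 52.9% of the control signal, a 1.89-fold lower level with a difference of -0.92 log2 units. Of the 500 genes nearest in signal, 2.8% had a lower difference and 12.6% were at least 1.5-fold lower. The siTet2/3 value lay under the stricter floor of 8.31, and with that value raised to this floor Pkp3 was 1.58-fold lower. Pkp3 did not pass a limit of 2-fold, nor one of 3 robust SDs of its 500 nearest genes, where 1 SD was 0.44 log2 units. Pkp2 and Pkp3, which share the armadillo fold, differed in opposite directions, with 1.40 log2 units between their differences. The pair was singled out after its values were seen.

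**Figure D2:**
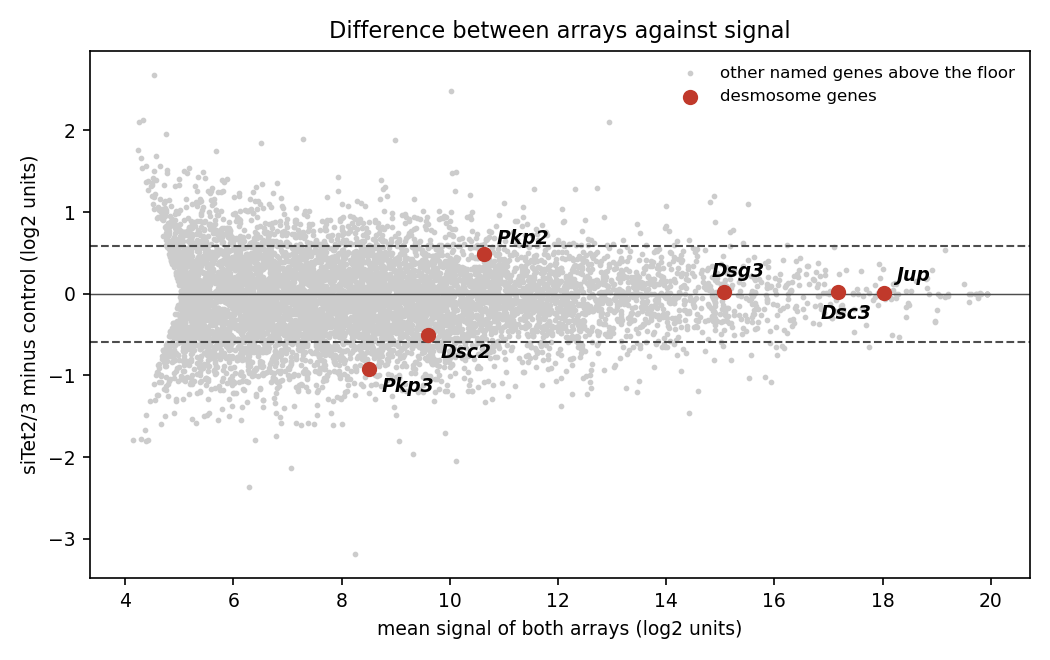
Difference between the arrays (vertical axis, siTet2/3 minus control, log2 units) against the mean signal of both (horizontal axis, log2 units) for all named genes above the floor (grey) and the 6 desmosome genes (red). The dashed lines mark 1.5-fold. Pkp3 lies beyond the lower line at -0.92, Dsc2 and Pkp2 lie inside the lines at -0.51 and 0.48, and Dsg3, Dsc3 and Jup lie on 0 at the bright end, where differences of all genes are narrower.

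TET proteins act on methylated CpG dinucleotides, so the CpG content of the desmosome promoters is shown here beside the expression values; methylation itself was not measured. RefSeq's promoter table for GRCr8 held 8 of the 10 genes, and Pkp2 and Pkp3 were not among them. The 250 bases before the start of each measured gene in the table are printed 5′ to 3′ on the gene's strand, with every CpG in capitals. The Dsc2 stretch lies at chr18:11757467-11757716 (minus strand), Dsc3 at chr18:11688872-11689121 (minus), Dsg3 at chr18:12074071-12074320 (plus) and Jup at chr10:85827430-85827679 (minus).
Dsc2: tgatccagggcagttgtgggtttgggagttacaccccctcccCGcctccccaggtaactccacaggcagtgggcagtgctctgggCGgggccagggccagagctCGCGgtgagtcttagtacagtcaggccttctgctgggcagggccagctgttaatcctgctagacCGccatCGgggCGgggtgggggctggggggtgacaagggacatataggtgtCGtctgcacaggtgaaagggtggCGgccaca
Dsc3: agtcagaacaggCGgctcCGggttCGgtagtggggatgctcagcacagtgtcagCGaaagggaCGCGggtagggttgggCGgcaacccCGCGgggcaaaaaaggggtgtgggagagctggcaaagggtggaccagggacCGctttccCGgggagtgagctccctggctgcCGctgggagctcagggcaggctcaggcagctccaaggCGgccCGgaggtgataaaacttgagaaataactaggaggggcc
Dsg3: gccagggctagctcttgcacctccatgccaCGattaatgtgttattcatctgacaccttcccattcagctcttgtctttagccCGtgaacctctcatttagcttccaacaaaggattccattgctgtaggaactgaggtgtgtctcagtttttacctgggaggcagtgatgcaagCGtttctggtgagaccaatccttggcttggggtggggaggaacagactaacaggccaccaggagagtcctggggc
Jup: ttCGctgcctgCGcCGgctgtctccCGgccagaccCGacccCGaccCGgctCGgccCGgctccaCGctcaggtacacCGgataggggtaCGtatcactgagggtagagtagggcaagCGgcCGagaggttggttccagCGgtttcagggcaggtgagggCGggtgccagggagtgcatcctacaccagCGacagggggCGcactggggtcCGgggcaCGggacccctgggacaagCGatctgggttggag

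The Dsc2 stretch held 9 CpGs, the Dsc3 stretch 14, the Dsg3 stretch 3 and the Jup stretch 21. The median over all 33469 promoters of the table was 5, with quartiles of 2 and 15. The neighbours Dsc2 and Dsc3 had the same GC content, 64.4%, and Dsc2 had the lower ratio of observed to expected CpGs, 0.359 against 0.586 for Dsc3. By rank, 28.6% of promoters had fewer CpGs than Dsg3, 72.4% fewer than Dsc3 and 84.9% fewer than Jup. Whether CpG content goes with the expression differences was not tested. Among the unmeasured members, Dsp had 29 CpGs, Pkp1 18, Dsg1 7 and Dsc1 1. The AP-1 motif TGANTCA, which reads the same on both strands, occurred in 0 of the 8 stretches and in 6.34% of all promoters. The Grainyhead-like motif AACCGGTT, also the same on both strands, occurred in 0 of 8 and in 0.146% of all promoters. The E-box CACCTG, which Snail factors bind, occurred on either strand in 3 of 8, those of Dsc2, Jup and Dsp, and in 15.9% of all promoters.

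The other desmosome components with a named probe above the floor were all on the higher side on the siTet2/3 array. Among all 8103 genes above the floor, 3611 were on the higher side. However, 0 of 4 components reached 1.5-fold in either direction, where the background share was 13.2% for lower and 8.63% for higher genes. Ppl, which encodes periplakin, a plakin that links desmosomes and the cornified envelope to keratin, read 14.84 log2 units on the siTet2/3 array and 14.29 on the control array, a 1.46-fold difference. It passed 1.5-fold when all differences were centred on their median. Pnn, which encodes pinin, a nuclear protein also reported at desmosomes, was 1.32-fold higher, and the envoplakin gene Evpl was 1.09-fold higher, with both of its values under 8.31. Perp, which encodes a tetraspan protein needed for desmosome assembly in mouse epidermis, read 18.86 on the siTet2/3 array and 18.79 on the control array. The median of the list was 0.27 log2 units, against -0.05 for all genes above the floor.

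The keratins to which desmosomes anchor were measured through 4 genes above the floor. Krt15, a basal keratin that also marks bulge stem cells of the follicle, had 11.26 log2 units on the siTet2/3 array and 8.78 on the control array, which is 5.59-fold higher. Krt14, the partner of Krt5 in basal cells, read 18.70 on the siTet2/3 array and 18.54 on the control array, and the wound keratin gene Krt17 read 18.12 on the siTet2/3 array and 18.19 on the control array. Krt1, the keratin of the spinous layer, read 6.63 on the siTet2/3 array and 7.07 on the control array, both under the stricter floor. Together with Ivl, an envelope gene at 7.84 on the siTet2/3 array and 7.99 on the control array, this made 2 upper-layer markers that lay under 8.31 on both arrays. Other genes linked to the cornified envelope were not alike in this. Ppl (14.84 on the siTet2/3 array, 14.29 on the control array) and Tgm1 (15.62 and 16.21) lay above both floors. Evpl (7.53 and 7.40) lay under 8.31. Krt19, a keratin of simple epithelia and hair follicle, read 6.24 on the siTet2/3 array and 5.54 on the control array. It was 1.62-fold higher, in the same direction as Pkp2, but both of its values lay under 8.31. Krt7, the other simple epithelium marker above the floor, differed by only 0.04 log2 units (5.48 on the siTet2/3 array, 5.44 on the control array). The 4 simple epithelium markers ranged from 3.68 to 6.24 on the siTet2/3 array and from 3.24 to 5.54 on the control array, with Krt8 and Krt18 below the floor, and their part in the Pkp2 value was not tested.

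**Figure D3:**
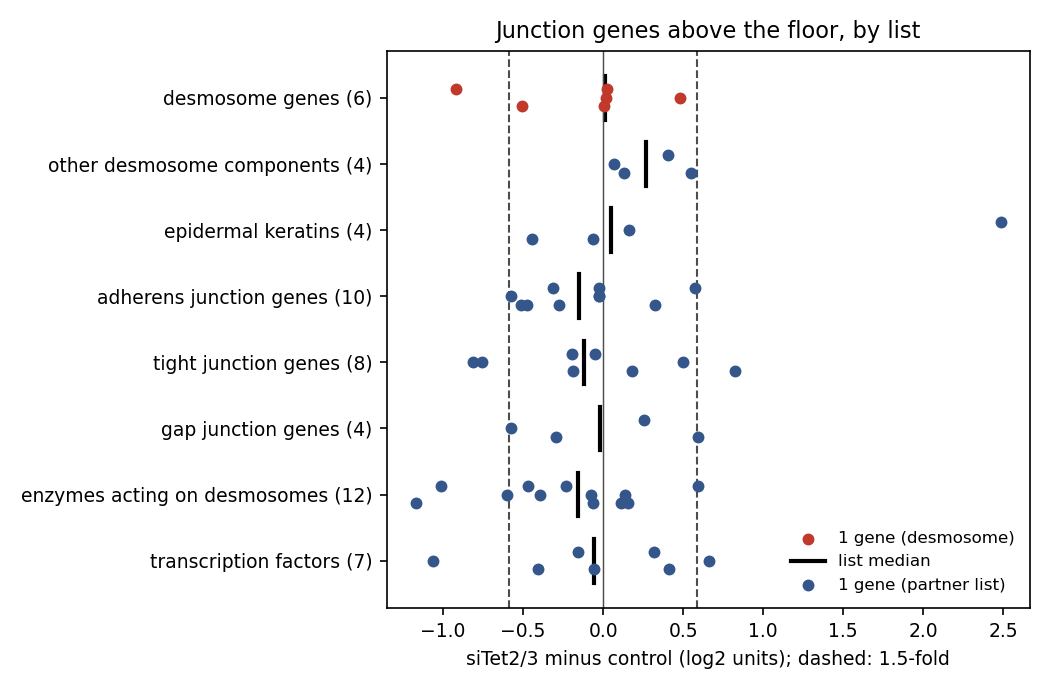
Difference between the arrays (horizontal axis, siTet2/3 minus control, log2 units) for each gene above the floor of the desmosome list (red) and of 7 related lists (blue), with the number of genes in brackets and the list median as a black bar. The dashed lines mark 1.5-fold. The desmosome median stands at 0.01 between Pkp3 on the left and Pkp2 on the right, and Krt15 stands alone at 2.48.

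Other junctions were compared with desmosomes by counts and medians. At 1.5-fold, 13.2% of all genes above the floor were lower and 8.63% were higher. Of 10 adherens junction genes, 0 reached 1.5-fold in either direction and the median was -0.15 log2 units. Cdh1, which encodes E-cadherin, read 17.62 on the siTet2/3 array and 17.65 on the control array, and the β-catenin gene Ctnnb1, related to Jup, read 15.59 on the siTet2/3 array and 15.61 on the control array. Ctnnd1, which encodes p120-catenin, a relative of the plakophilins, was 1.49-fold higher (13.56 on the siTet2/3 array, 12.98 on the control array). Ctnnd1 passed 1.5-fold after centring. Nectin3 was 1.49-fold lower (12.08 on the siTet2/3 array, 12.65 on the control array) and did not pass 1.5-fold after centring. Of the 10 adherens junction genes, 8 were on the lower side and 2 on the higher side. Among all 8103 genes above the floor, 4458 were on the lower side. Of 8 tight junction genes above the floor, 2 were lower by 1.5-fold or more on the measured values, but 1 once values below the floor had been set to it, and 1 was higher, with a median of -0.12. The claudin gene Cldn4 was 1.75-fold lower (14.80 on the siTet2/3 array, 15.61 on the control array), and the scaffold gene Tjp1 was 1.77-fold higher (11.75 on the siTet2/3 array, 10.93 on the control array). Tjp3, the other gene counted as lower, has a bound of 1.11-fold, since its siTet2/3 value of 4.43 lay under the floor. F11r, which encodes the junctional adhesion molecule JAM-A, read 10.29 on the siTet2/3 array and 10.34 on the control array. Of 4 gap junction genes, 0 were lower and 1 was higher, Panx1, which encodes a channel of the related pannexin family (1.51-fold, both values under 8.31). Gja1, which encodes connexin 43, read 16.92 on the siTet2/3 array and 17.21 on the control array. The connexin gene Gjb5 read 8.75 on the siTet2/3 array and 8.49 on the control array. No test of the differences between these lists was possible.

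Enzymes known to act on desmosomes were listed as well, together with Spink5, which encodes a protease inhibitor. Among the 12 genes of this list that passed the floor, 3 were lower by 1.5-fold or more and 8 were neither. The 1 higher gene was the inhibitor gene Spink5. The median was -0.15 log2 units. The background share over all genes above the floor was 13.2% for lower and 8.63% for higher genes. Src, a tyrosine kinase whose targets include junction proteins, was 2.25-fold lower (9.23 log2 units on the siTet2/3 array, 10.39 on the control array). Klk6, a kallikrein protease, was 2.02-fold lower, with both values under 8.31. Tgm1, the transglutaminase that cross-links the cornified envelope, was 1.51-fold lower (15.62 on the siTet2/3 array, 16.21 on the control array), but not past 1.5-fold after centring. Spink5, whose product inhibits the kallikreins that degrade desmosomal cadherins in the stratum corneum, was 1.51-fold higher (16.52 on the siTet2/3 array, 15.93 on the control array). The sheddase genes Adam10 and Adam17, whose enzymes cleave cadherins at the cell surface, differed by 0.11 and 0.14. Atp2a2, the calcium pump gene mutated in Darier disease, in which desmosomes fail, differed by -0.23, and Klk7 by -0.06.

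Of 7 transcription factor genes that passed the floor, 1 was higher by 1.5-fold or more and 5 were neither. On the measured values 1 was lower, but 0 once values below the floor had been set to it. Among all genes above the floor, 13.2% were lower and 8.63% higher at this limit. Klf5, a Krüppel-like factor of basal keratinocytes, read 12.95 log2 units on the siTet2/3 array and 12.28 on the control array, 1.58-fold higher. Cebpb, the gene counted as lower, has a bound of 1.23-fold, with its siTet2/3 value of 4.27 under the floor. Tp63, the master factor of stratified epithelium, whose known targets include Perp, read 12.75 on the siTet2/3 array and 13.15 on the control array. Snai2, a repressor of epithelial adhesion genes, read 14.38 on the siTet2/3 array and 14.07 on the control array, and Klf4 differed by -0.06. The median of this list was -0.06 log2 units.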

How the data were processed

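The authors deposited log2 signals per probe set for each array, made with RMA and the Transcriptome Analysis Console per the submitters' processing notes, which give no versions. Neither the genome build nor the probe annotation is given in the sources used here. Medians were 4.90 (siTet2/3) and 4.85 (control), so differences are relative to the bulk of genes. The scale reaches 19.93, higher than RMA usually gives, and folds are those of this scale.

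A platform table named 15049 of 23188 gene probes. Probes of a gene were averaged (10 genes; no desmosome gene). The difference siTet2/3 minus control was taken per gene. Counted genes differed at least 1.5-fold and passed the floor, the 95th percentile over 1206 chemoreceptor genes, with the higher of their values; where 1 value lay under the floor, the fold is a bound. Each desmosome gene was placed among the 500 genes above the floor nearest in mean signal, as a description. With 1 array per group there is no p-value, and their number limits the precision. Counting was tested on simulated data of genes brighter than Pkp3, with less spread than around any desmosome gene and no floor. It therefore does not bear on the Pkp3 count or on the floor. Members and lists were chosen with earlier results of these data known. Named beside the members were list genes past 1.5-fold, the brightest on the siTet2/3 array and the one differing least; others were chosen after their values were seen. There were 0 columns of unknown samples. Python 3.11.15, R 4.3.3 and limma 3.58.1 (loess) were used.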

Additional observations from a re-analysis of the deposited data

How the results depend on the processing

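No paired analysis was possible because each group had 1 array. The direction of Pkp3 was the same under all alternatives tried, and its difference ran from -0.92 to -0.66 log2 units; the smaller value, chosen after seeing the data, raised values to the floor of negative-control probes. At a 2-fold limit, and at 3 local robust SDs, the count of lower desmosome genes was 0. The median of the desmosome genes was 0.06 after centring, 0.04 after removal of a loess trend on level, and -0.15 as a mean. Centring or trend removal each gave 1 higher gene among the other desmosome components (Ppl) and 1 among adherens junction genes (Ctnnd1), against 0. A floor 1 log2 unit higher, the negative-control floor, or values raised to the floor left 1 lower tight junction gene and 0 lower transcription factor genes. The negative-control floor left 0 higher gap junction genes. At 2-fold, 0 tight junction genes were higher and 0 lower, and 0 gap junction genes, 0 enzyme genes and 0 transcription factor genes were higher. Over all genes, 699 were higher and 1070 lower as reported, 845 and 899 after centring, 1684 and 1690 with no floor, 248 and 453 with the negative-control floor, and 147 and 247 at 2-fold. Of 205 recomputed values, 181 changed little, 24 moved and 0 reversed a counted difference. Only Pkp3, the counted desmosome gene, could be marked as reversed. Each desmosome gene had 1 probe set and passed the lower floor on both arrays. Its difference could therefore change only by centring, trend removal or raising to the negative-control floor, and the other settings returned the same value by construction. The cause of these changes was not tested beyond the construction of each setting. The siTet2/3 signal of Pkp3 lay near background, and the share of cells in each layer was not measured.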

Other observations

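Tek and Cd68 were each the only measured gene of their marker list above the floor, and Cdx2 of the transcription factor list is described beside them. Tek, an endothelial receptor gene, read 9.25 log2 units on the siTet2/3 array and 9.66 on the control array, above both floors, while the endothelial genes Pecam1, Cdh5, Kdr and Tie1 lay below the floor on both arrays. Cdx2, an intestinal transcription factor gene whose product is known to act on the desmocollin gene Dsc2 in human colon cells, read 8.69 on the siTet2/3 array and 8.28 on the control array, a 1.33-fold difference. The Cdx2 control value lay under 8.31. The immune marker Cd68 read 5.24 on the siTet2/3 array and 5.52 on the control array, both under 8.31 and close to the lower floor of 5.04. Ptprc, Cd3e, Itgam and Cd74 lay below the lower floor.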
